A study of Mus musculus with 6 samples.

Results

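The epidermal barrier lipid genes described here are 9 genes chosen by name for their place in the lipid metabolism of the epidermis: the lipoxygenases Alox12b and Aloxe3, the lipid transporter Abca12, the elongases Elovl1 and Elovl4, the ceramide synthase Cers3, the glucosylceramide synthase Ugcg, the sphingomyelinase Smpd1 and the thioesterase Them5. The choice was made with earlier results of these data known. Of the 9 genes, 8 had at least 1 probe and together held 13 probes, of 41174 probes and 27573 gene names on the array. Cers3 was found neither under that name nor under its older name Lass3, and is not analysed here. Abca12 was found under older names, 4833417A11Rik and 4832428G11Rik, which the RefSeq table gives as its synonyms.

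The samples were cultures of primary keratinocytes, the cells that build the epidermis, isolated together with hair follicle buds from newborn wild-type mice. All 6 cultures carried the v-ras-Ha oncogene, brought in by an adenovirus at 10 viral particles per cell. No culture without the oncogene thus enters the comparison. Polybrene was used in both groups, and its concentration and the infection time were the same for all 6 cultures. In the Anakinra group, 3 cultures received Anakinra, a recombinant interleukin-1 receptor antagonist, at 5 ug/ml from 5 hours after transduction, and were kept for 3 more days, the antagonist being renewed after 2 days. In the PBS group, 3 cultures received PBS in its place. The comparison asks what blocking the interleukin-1 receptor does to gene expression in keratinocytes that carry the oncogene. Nothing in the labels says that the replicates had separate animals as their source, so a p-value here covers only the scatter among these 6 cultures, and that scatter may be technical.

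The water barrier of the skin lies in the cornified layer, where dead cells are embedded in stacked sheets of ceramides, cholesterol and free fatty acids. Keratinocytes of the upper layers lengthen fatty acids, join them to a sphingoid base, add linoleate and a sugar, and pack the product into lamellar bodies for secretion. After secretion the sugar and the phosphocholine headgroups are removed, and oxidation of the linoleate lets part of the ceramide be bound to proteins of the cornified envelope. Inherited loss of several of these enzymes in humans causes ichthyosis, a scaling disorder of the skin.

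The upstream sequences of 3 of the genes are shown because they cover both genes that passed the test, Them5 and Alox12b, and Elovl4, whose change came closest to that of Alox12b. Each is the 250 bases before the gene's annotated start, written 5′ to 3′ on the gene's own strand, from RefSeq on GRCm38.p6, and the capitals mark CpG dinucleotides. They lie at chr3:94341849-94342098 on the plus strand for Them5, at chr11:69156822-69157071 on the plus strand for Alox12b and at chr9:83806306-83806555 on the minus strand for Elovl4.
Them5: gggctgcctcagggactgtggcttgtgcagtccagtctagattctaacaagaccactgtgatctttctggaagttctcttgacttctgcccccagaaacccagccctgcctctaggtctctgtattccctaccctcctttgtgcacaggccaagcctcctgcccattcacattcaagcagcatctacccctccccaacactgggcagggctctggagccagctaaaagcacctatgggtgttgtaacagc
Alox12b: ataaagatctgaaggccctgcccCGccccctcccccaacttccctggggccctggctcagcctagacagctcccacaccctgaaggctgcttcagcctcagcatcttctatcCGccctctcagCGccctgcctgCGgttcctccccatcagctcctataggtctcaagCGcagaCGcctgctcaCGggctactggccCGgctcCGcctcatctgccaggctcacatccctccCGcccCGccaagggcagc
Elovl4: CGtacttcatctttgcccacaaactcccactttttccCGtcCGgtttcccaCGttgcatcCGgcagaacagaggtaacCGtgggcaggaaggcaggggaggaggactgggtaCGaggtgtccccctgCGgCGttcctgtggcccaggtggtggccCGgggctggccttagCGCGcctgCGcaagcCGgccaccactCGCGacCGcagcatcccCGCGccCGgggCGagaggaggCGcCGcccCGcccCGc

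The Them5 window held 0 CpG, that of Alox12b 11 and that of Elovl4 25. Over all 32851 promoters of the table the median was 6, with quartiles at 2 and 16. Of the other members, Abca12 had 5, Cers3 6, Smpd1 16 and Ugcg 43, while Elovl1 had 18 and 5 in its 2 promoters. Aloxe3 was not matched. The 8 matched genes thus ran from no CpG to the densest end of the table, where 99.3% of promoters held fewer than Ugcg. The GC box GGGCGG, searched on both strands and present in 32.7% of all promoters, occurred 3 times in the Alox12b window, 2 times in those of Elovl4 and Ugcg, 4 times in that of Smpd1, and 5 and 2 times in those of Elovl1. It occurred 0 times in the windows of Them5, Abca12 and Cers3. The CCAAT box (letters CCAAT, 33.8% of promoters) occurred 1 time each in Smpd1 and in the first Elovl1 window. TATAAA (12.4%), the AP-1 letters TGANTCA (6.75%) and the grainyhead-like letters AACCGGTT (0.116%) occurred in 0 of the 9 windows. These letters are a description of the windows only.

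Expression is given as the log2 of the scanner's processed signal minus that of the 75th percentile of the same array, called the scaled log2 signal, so 0 is a bright but not extreme probe. The 75th percentile was 1002, 1087 and 1065 on Anakinra arrays 1, 2 and 3, and 864, 987 and 1006 on the PBS arrays. The share of probes well above background was 56.1%, 86.5% and 55.6% on the Anakinra arrays, against 66.9%, 62.5% and 71.0% on the PBS arrays, and 0 spots were saturated. Anakinra 1, PBS 2 and PBS 3 shared slide 1, while Anakinra 2, Anakinra 3 and PBS 1 shared slide 2, and scan and slide coincided. By limma, at an adjusted p under 0.05 over the 16495 genes tested, 160 passed as higher and 132 as lower under Anakinra, against 8 and 49 when arrays were scaled to their medians.

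Of the 8 measured barrier lipid genes, Them5 and Alox12b passed this test as higher in Anakinra, 0 passed as lower and 6 did not pass. Over all genes tested, 0.970% passed as higher and 0.800% as lower, 1.77% in all. The 8 genes were chosen with earlier results of these data known, so they are not an independent set. In all 8 genes every Anakinra culture lay above every PBS culture, a separation that 12.5% of all tested genes showed, and 14.3% of those above background on all 6 arrays. All 8 had an unadjusted p under 0.05 and a positive change, against 8.48% of all genes. With arrays scaled to their medians 1 of the 8 did, beside 89 of all 16495 genes. The median change of the 8 was 0.47 on the log2 scale, beside 0.01 over all tested genes. All 8 passed the background filter in both groups. In cultures such as these, fewer cells of a type and less RNA per cell cannot be told apart.

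**Figure D1:**
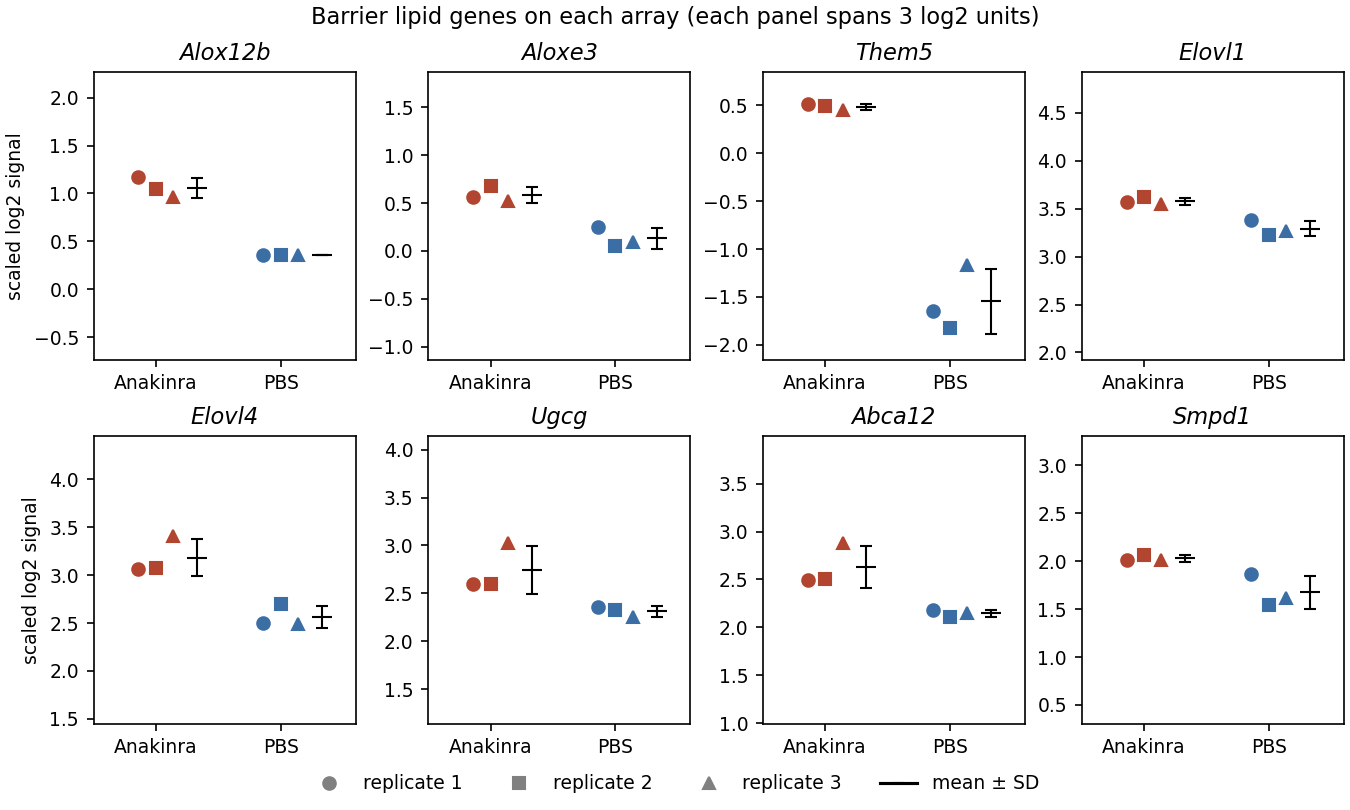
Scaled log2 signal (vertical axis, each panel spanning 3 log2 units) of the 8 measured barrier lipid genes in the 3 Anakinra and the 3 PBS cultures; the marker shape gives the replicate number, and the bar beside each group is the mean with its SD. In each panel the 3 Anakinra points lie above the 3 PBS points, with the widest gap for Them5.

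The oxidation of linoleate in acylceramides is begun by Alox12b, the 12R-lipoxygenase, and continued by Aloxe3, a hydroperoxide isomerase that works on its product. Both genes are named causes of autosomal recessive congenital ichthyosis in humans. The brighter Alox12b probe (A_52_P316765, chr11:68985797-68985856 on mm8, the build of the array design) read 1.17, 1.05 and 0.96 in Anakinra 1, 2 and 3, against 0.36 in each of the 3 PBS cultures. The PBS values nearly coincided and the lowest Anakinra value, that of replicate 3, still lay well above them. Alox12b averaged 1.06 ± 0.11 in Anakinra and 0.36 ± 0.0016 in PBS (SD, n = 3 each). The change was 0.70 ± 0.08 (SE; 95% confidence interval 0.51 to 0.89), or 1.63-fold higher in Anakinra (limma adjusted p = 0.0206). With arrays scaled to their medians the change was 0.37 and did not pass (adjusted p = 0.869), and without the background filter it was 0.70 and did not pass (0.120).

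The Alox12b call did not hold with the slide as a block in the fit, where the change was 0.73 (limma adjusted p = 0.0754), and it was 0.81 within slide 1 and 0.64 within slide 2. Of the 6 fits that each left out 1 array, it passed only without Anakinra 3 (adjusted p = 0.0467). It did not pass without Anakinra 1 (0.0663), Anakinra 2 (0.0511), PBS 1 (0.137), PBS 2 (0.191) or PBS 3 (0.120), with changes of 0.65 to 0.75.

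A dimmer Alox12b probe (A_51_P447258, chr11:68982229-68982463 on mm8) read 0.17, 0.13 and -0.10 in Anakinra, against -0.49, -0.66 and -0.53 in PBS. Its groups did not overlap either, and replicate 3 was again the lowest of the Anakinra cultures. Its change was 0.63 ± 0.10, and with every probe tested on its own it did not pass (limma adjusted p = 0.0775). The change on the dimmer Alox12b probe minus that on the brighter was -0.08 (exact permutation test, two-sided, p = 0.3, where 0.1 is the smallest p that 3 against 3 allows, so no such difference could pass 0.05).

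Aloxe3 had 1 probe (A_51_P136143, chr11:68965095-68965154 on mm8), whose start lies 20702 bases from that of the brighter Alox12b probe. It read 0.56, 0.68 and 0.52 in Anakinra, against 0.25, 0.05 and 0.09 in PBS. The groups did not overlap, and the highest PBS value, that of replicate 1, was the nearest to the Anakinra cultures. Aloxe3 averaged 0.58 ± 0.081 in Anakinra and 0.13 ± 0.11 in PBS (SD, n = 3 each), a change of 0.46 ± 0.09 (SE; 95% confidence interval 0.24 to 0.67) that did not pass (limma adjusted p = 0.0850). It passed with normexp background correction at 0.45 (adjusted p = 0.0412), but not with median scaling at 0.13 (0.917) or with slide as a block at 0.42 (0.196). Within slide 1 the difference was 0.49 and within slide 2 it was 0.34. The Aloxe3 change minus the Alox12b change, taken on the same arrays, was -0.25 (exact two-sided permutation p = 0.1, the smallest possible).

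Them5 is an acyl-CoA thioesterase of mitochondria, known in mice for a part in remodelling cardiolipin, and is not a known step of the ceramide route itself. Of the 8 genes it had the largest change. Its probe (A_51_P267441, chr3:94431613-94431960 on mm8) read 0.51, 0.49 and 0.45 in Anakinra, against -1.65, -1.82 and -1.17 in PBS. The Anakinra cultures lay close together, and the PBS cultures were spread more widely, with PBS 3 the highest of them and still far below. As processed signal, the scanner gave 1420, 1530 and 1460 in Anakinra, against 275, 280 and 446 in PBS, and the probe was well above background on all 6 arrays.

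Them5 averaged 0.48 ± 0.028 in Anakinra and -1.55 ± 0.34 in PBS (SD, n = 3 each). The change was 2.03 ± 0.18 (SE; 95% confidence interval 1.59 to 2.48), or 4.09-fold higher in Anakinra (limma adjusted p = 0.0127). A fit with slide as a block gave 2.06 and did not pass (adjusted p = 0.0647), while the difference was 2.00 within slide 1 and 2.13 within slide 2. Leaving out 1 array at a time, it passed without Anakinra 2 (adjusted p = 0.0341) and without PBS 3 (0.0208). It did not pass without Anakinra 1 (0.0605), Anakinra 3 (0.0582), PBS 1 (0.105) or PBS 2 (0.0888), with changes of 1.90 to 2.22.

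The elongases lengthen fatty acids before they enter ceramides. Elovl1 acts on saturated and monounsaturated very-long-chain fatty acids, and Elovl4 makes the ultra-long chains that are particular to acylceramides. The Elovl4 probe (A_51_P234881, chr9:83575756-83575815 on mm8) read 3.06, 3.08 and 3.41 in Anakinra, against 2.50, 2.70 and 2.49 in PBS. Anakinra 3 was the highest, and the highest PBS culture, PBS 2, stayed below every Anakinra culture. The Elovl4 change was 0.62 ± 0.13 (SE; 95% confidence interval 0.30 to 0.94), 1.54-fold, and did not pass (limma adjusted p = 0.0993). It passed with normexp background correction at 0.58 (adjusted p = 0.0441), but not with median scaling at 0.29 (0.869) or with slide as a block at 0.61 (0.247). The difference was 0.47 within slide 1 and 0.75 within slide 2.

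The Elovl1 probe (A_51_P120305, chr4:117930352-117930411 on mm8) read 3.57, 3.62 and 3.55 in Anakinra, against 3.38, 3.23 and 3.27 in PBS. The groups were close but separate, with PBS 1 nearest to the Anakinra cultures. Elovl1 changed least of the 8 genes, by 0.29 ± 0.07 (SE; 95% confidence interval 0.11 to 0.47), and did not pass (limma adjusted p = 0.137). With arrays scaled to their medians its change was -0.04, where the median of all tested genes was -0.32 and Elovl1 lay 0.28 above it. In the scaling used elsewhere in the text the median of all genes was 0.01. The scalings differ only by a constant per array, so the distance of 0.28 is the same in both by construction and is no check.

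Ugcg adds glucose to ceramide, the form in which most ceramide is packed for secretion. Its brightest probe (A_52_P95910, chr4:59316515-59316574 on mm8) read 2.60, 2.60 and 3.03 in Anakinra, against 2.36, 2.33 and 2.25 in PBS. Anakinra 3 stood above the other cultures of its group. The change was 0.43 ± 0.14 (SE; 95% confidence interval 0.08 to 0.78) and did not pass (limma adjusted p = 0.229), and was 0.10 with median scaling. A second probe just before the first (A_51_P481342, chr4:59316385-59316445) read 2.39, 2.28 and 2.88 in Anakinra, against 2.14, 2.16 and 2.07 in PBS, again highest in Anakinra 3.

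The third Ugcg probe went the other way. It begins 3964 bases before the brightest (A_51_P332717, chr4:59312551-59312610) and read 1.14, 1.0 and 0.60 in Anakinra, against 1.15, 1.03 and 1.01 in PBS. Here Anakinra 3 was the lowest of all 6 cultures, and the groups overlapped. Its change was -0.15 ± 0.16 (limma adjusted p = 0.731 with every probe tested on its own). The change on the third probe minus that on the brightest was -0.58 (exact two-sided permutation p = 0.1, the smallest possible). Averaging the 3 probes gives Ugcg a change of 0.23. Whether the probes read different transcripts was not tested.

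Abca12 moves glucosylceramides into lamellar bodies, and its loss in humans causes harlequin ichthyosis. Its brightest probe (A_52_P27956, chr1:71176346-71176405 on mm8) read 2.49, 2.51 and 2.88 in Anakinra, against 2.18, 2.11 and 2.15 in PBS. As for Elovl4 and Ugcg, Anakinra 3 was the highest, and the groups did not overlap. The Abca12 change was 0.48 ± 0.12 (SE; 95% confidence interval 0.16 to 0.79) and did not pass (limma adjusted p = 0.158), and was 0.15 with median scaling.

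A second Abca12 probe (A_52_P158660, chr1:71245892-71247209) read -1.06, -0.92 and -0.81 in Anakinra, against -1.05, -1.24 and -1.20 in PBS. These groups overlapped, since PBS 1 lay just above Anakinra 1. The change on this probe was 0.23 ± 0.10 (limma adjusted p = 0.382 with every probe tested on its own). Its change minus that on the brightest Abca12 probe was -0.24 (exact two-sided permutation p = 0.1, the smallest possible). With the mean of its tested probes Abca12 changed by 0.35 and did not pass (limma adjusted p = 0.222). Another Abca12 probe (A_51_P304743) was well above background on 1 array of each group and was not tested.

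Smpd1, acid sphingomyelinase, turns sphingomyelin into ceramide after secretion. Its probe (A_51_P429209, chr7:105432059-105432118 on mm8) read 2.01, 2.07 and 2.01 in Anakinra, against 1.87, 1.54 and 1.62 in PBS. The Anakinra cultures agreed closely and PBS 1 came nearest to them. The Smpd1 change was 0.36 ± 0.10 (SE; 95% confidence interval 0.10 to 0.62) and did not pass (limma adjusted p = 0.190), and was 0.03 with median scaling. It was 0.44 within slide 1 and 0.17 within slide 2.

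Among the Anakinra cultures the genes thus did not order alike. Replicate 3 was the highest for Elovl4, Ugcg (brightest probe) and Abca12, but the lowest for Alox12b, Aloxe3, Them5 and Elovl1. For Smpd1 the highest was replicate 2. No test was made of this ordering.

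Other genes of barrier lipid metabolism were taken from 8 lists by role, likewise chosen with earlier results of these data known. They held 84 genes, of which 77 were tested. Of the 77, 7 passed as higher in Anakinra, 0 as lower and 70 did not pass. Over all tested genes, 0.970% passed as higher and 0.800% as lower. At an unadjusted limma p under 0.05, 21 list genes were higher and 0 lower, beside 1398 higher and 1255 lower of all 16495 genes. Without Anakinra 3, 21 list genes were higher and 5 lower at that p, beside 1550 and 1098 of all genes then tested. With median scaling 0 of the list genes passed as higher, with 1 at an unadjusted p under 0.05, beside 89 higher of all 16495 genes. The median change of the 77 was 0.11, with 53 positive and 24 negative, against 8623 positive and 7872 negative over all tested genes. With the slide as a block, 0 of the 7 passed (limma adjusted p of 0.0584 to 0.115). In that fit with the slide as a block, 18 of the 77 were higher and 0 lower at an unadjusted p under 0.05. Beside them stood 1135 higher and 945 lower of all 16495 genes.

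In linoleate oxidation, 1 of 6 tested genes rose. Sdr9c7, the dehydrogenase that acts after Aloxe3, read 1.90, 1.89 and 1.69 in Anakinra, against 0.91, 0.89 and 1.04 in PBS, a change of 0.88 ± 0.09 (limma adjusted p = 0.0181). The list's median was 0.14. Alox12e, which is another gene than Aloxe3, had a change of 0.13 and did not pass.

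Among genes of acylceramide making and the lipases, 2 of 10 rose and the median was 0.42, the highest of the 8 lists. Lipm, a lipase of the upper epidermis, read 2.12, 2.11 and 2.27 in Anakinra, against 1.20, 1.16 and 1.31 in PBS (change 0.94 ± 0.08, limma adjusted p = 0.0123). Pla2g2f, a secreted phospholipase of the upper epidermis, read 1.46, 1.49 and 1.27 in Anakinra, against 0.34, -0.08 and 0.15 in PBS (change 1.27 ± 0.13, adjusted p = 0.0190). In both genes the groups were wide apart.

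In ceramide and sphingomyelin turnover, 2 of 17 rose, with a list median of 0.19. The neutral ceramidase Asah2 read -0.14, -0.36 and -0.26 in Anakinra, against -1.16, -1.22 and -1.08 in PBS, and changed by 0.90 ± 0.08 (limma adjusted p = 0.0153). The neutral sphingomyelinase Smpd3 read 1.55, 1.62 and 1.53 in Anakinra, against 0.82, 0.53 and 0.83 in PBS, and changed by 0.84 ± 0.10 (adjusted p = 0.0296). With the mean of its probes Smpd3 changed by 0.62 and did not pass (limma adjusted p = 0.124). The acid sphingomyelinase Smpd1 described above did not pass.

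In ceramide backbone synthesis, 1 of 10 rose, and the median was 0.08. This was Sptlc3, a subunit of serine palmitoyltransferase, which makes the first product of the route. It read 1.47, 1.19 and 1.32 in Anakinra, against 0.10, 0.26 and 0.50 in PBS (change 1.04 ± 0.14, limma adjusted p = 0.0338). In fatty acid activation, elongation and transport, 1 of 18 rose, and the median was 0.04. This was the acyl-CoA synthetase Acsl1, at 1.42, 1.47 and 1.35 in Anakinra, against 0.70, 0.50 and 0.63 in PBS (change 0.80 ± 0.08, adjusted p = 0.0177). Each gene's groups were separate.

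In the remaining 3 lists 0 genes passed. Among 5 glycosphingolipid genes, the GM3 synthase gene St3gal5 had a change of 0.39 ± 0.06 (limma adjusted p = 0.0635; 0.0395 with quantile scaling, 0.170 with slide as a block, and 0.962 with median scaling, where the change was 0.06) and the lysosomal galactosidase gene Glb1 one of -0.16 ± 0.08 (0.392). Among 9 genes of lipid transporters and lamellar body traffic, the ceramide carrier gene Cert1 had a change of 0.27 ± 0.10 (0.275) and the trafficking gene Vipas39 one of 0.15 ± 0.07 (0.374), which became -0.06 and -0.18 with median scaling. Of the cholesterol sulfate pair, the sulfatase gene Sts had a change of -0.13 ± 0.15 (0.738) and the sulfotransferase gene Sult2b1 one of -0.02 ± 0.12 (0.967; 0.06 with quantile scaling).

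**Figure D2:**
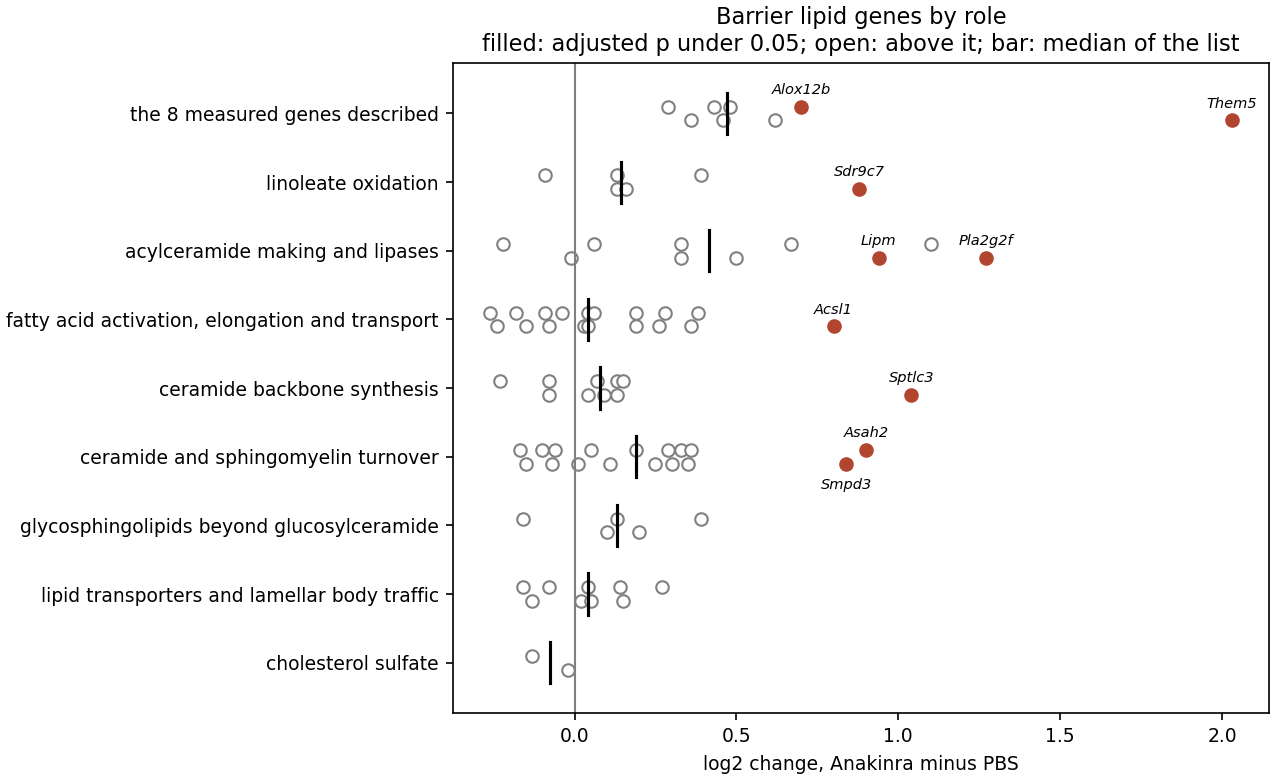
Log2 change, Anakinra minus PBS (horizontal axis), of the 8 measured genes described and of the tested genes in each role list; each point is a gene, filled where it passed at an adjusted p under 0.05, and the black bar is the median. The filled points all lie to the right, and the medians of the lists run from -0.08 to 0.42 beside 0.47 for the 8 genes.

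The genes whose values over the 6 arrays lay nearest to those of the called genes were sought among 14060 genes above background on every array, by the root mean square difference of the scaled log2 values after each gene was centred on its own mean. Nearest to Alox12b were the sialidase gene Neu2 (0.0565), the calmodulin-like gene Calm4 (0.0595) and Tgm1 (0.0651), the transglutaminase that cross-links the cornified envelope. Nearest to Them5 were the gasdermin genes Gsdmc (0.145) and Gsdmc2 (0.189) and the serpin gene Serpinb7 (0.179). These 6 genes were picked for their likeness, so their own changes are no further evidence.

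Some keratinocyte markers moved with Alox12b and Them5. Of 10 keratinocyte markers, 3 rose and 7 did not pass, where 0.970% of all tested genes passed as higher. The cell type markers here and in the next paragraph are given only in the main setting. Whether their calls hold in the other settings is not shown. Those that rose were Krt1, by 2.35 ± 0.19 (limma adjusted p = 0.0112), Krt10, by 2.40 ± 0.26 (0.0206) and Ivl, by 0.61 ± 0.08 (0.0323). Lor, which like these is expressed in the differentiating layers, had a change of 0.73 ± 0.15 that did not pass (adjusted p = 0.0960). The basal keratin Krt14 read 8.92, 8.87 and 8.80 in Anakinra, against 9.03, 8.84 and 8.84 in PBS, bright in every culture labelled keratinocytes, and had a change of -0.04 ± 0.08. The summed scaled signal of the 10 was 1140 to 1270 in Anakinra and 1140 to 1290 in PBS, most of it from Krt14 and Krt5 (Krt5 change -0.14 ± 0.08). The part of these markers in the lipid gene changes was not tested.

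Of the other cell types, sebocytes also make skin lipids: 4 of 8 of their markers were tested and 0 called, with Awat2, Elovl3, Mc5r and Plin1 not passing the background filter. Their sum was 21.4 to 23.7 in Anakinra and 24.1 to 24.8 in PBS, most of it from Fasn, a fatty acid synthase gene that is not particular to sebocytes (change -0.13 ± 0.07). The other 3 tested had changes of 0.59 (Scd3), 0.36 (Pparg) and 0.29 (Mogat1). Fibroblast markers were higher in sum in Anakinra, at 14.8 to 17.6, than in PBS, at 10.9 to 13.4, and 2 of 8 rose. Both were dim, Lum at -3.86 in Anakinra against -5.29 in PBS and Col3a1 at -1.69 against -2.64. The likewise dim Pdgfra (0.64) and the brighter Col1a1 (0.23), Col1a2 (0.18), Vim (0.70) and Thy1 (0.40) did not pass. In Lum, Col3a1, Pdgfra, Col1a2, Vim and Thy1 every Anakinra value lay above every PBS value, while for Col1a1 the groups overlapped. Dcn had a change of -0.38 ± 0.07 that did not pass (limma adjusted p = 0.0703), with every Anakinra value below every PBS value. Hair follicle markers summed to 424 to 449 in Anakinra and 412 to 497 in PBS, most of it from Krt17 (change -0.03 ± 0.09). Of 5 tested, 1 rose (Krt79, by 0.86 ± 0.06), while Krt15 (0.52), Sox9 (0.14) and Lhx2 (-0.09) did not pass. Melanocyte markers summed to 105 to 114 in Anakinra and 90.9 to 109 in PBS, with 0 of 8 called. Immune markers summed to 0.103 to 0.44 in Anakinra and 0.15 to 0.22 in PBS, with 0 of 3 tested called and Ptprc, Cd3e and Itgam not passing the filter. Endothelial markers summed to 0.16 to 0.259 in Anakinra and 0.177 to 0.204 in PBS, with 0 of 2 called. Their part in the lipid gene changes was not tested.

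**Figure D3:**
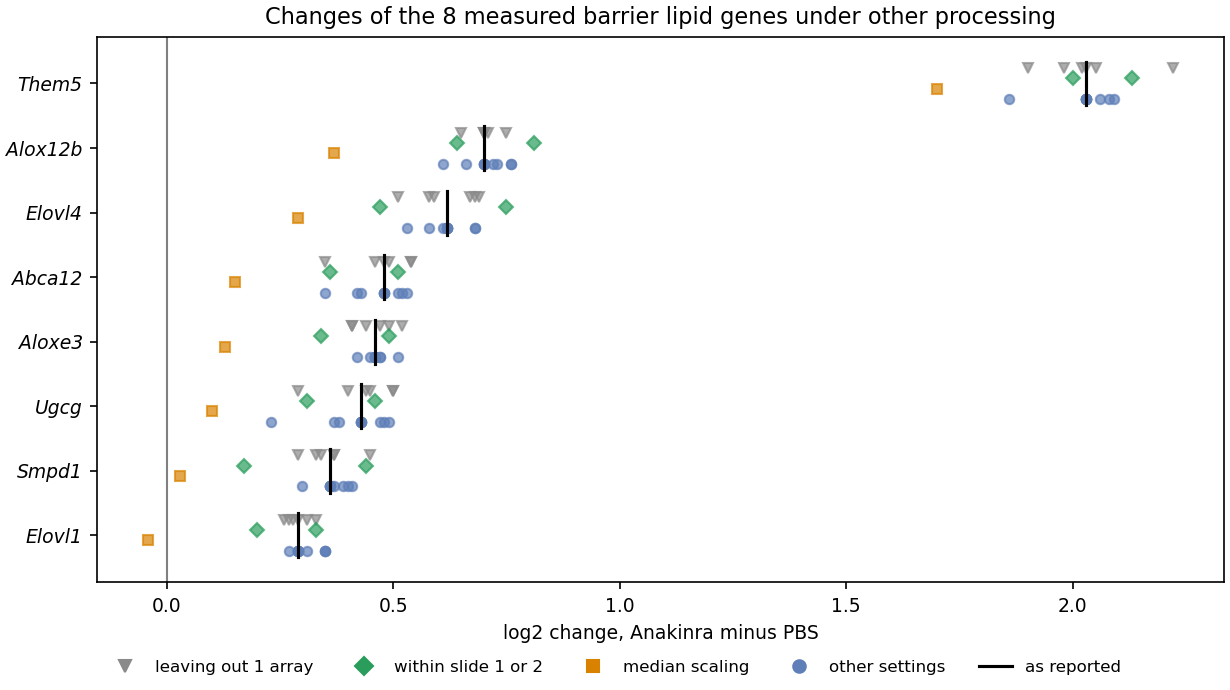
Log2 change, Anakinra minus PBS (horizontal axis), of the 8 measured genes as reported (black bar) and under each other way of processing (points; triangles leave out 1 array, diamonds use 1 slide, squares scale arrays to their medians). The points of Them5 stay between 1.70 and 2.22 and those of Alox12b between 0.37 and 0.81, and only Elovl1, at -0.04 with medians scaled, crosses 0.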

How the data were processed

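Total RNA of 6 keratinocyte cultures was read on 6 Agilent arrays, labelled with Alexa-555 per the labels. Per the file headers, the deposited scanner intensity was read with Agilent Feature Extraction 9.5.3.1 and was background-subtracted within each array, with nothing normalised between arrays. The table of values that the authors deposited holds log2 numbers, each equal to the log2 processed signal plus 1 constant per array, with column medians of 5.74, 7.00 and 6.21 in Anakinra and 5.77, 5.83 and 6.22 in PBS. How the constants were set is unknown.

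From the scanner files, log2 processed signal minus the array's 75th percentile was taken, without control and outlier spots, and spots of a probe were averaged. A probe entered if well above background on all arrays of 1 group, with at least 2 values per group, and the brightest passing probe stood for its gene. Names were updated through RefSeq genes of GRCm38.p6 (23374 probes by accession, 6733 by symbol, 2919 by synonym, 8148 keeping the file's name). Groups came from the sample titles. Anakinra was compared with PBS in limma 3.58.1 (R 4.3.3, lmFit and eBayes, two-sided, Benjamini-Hochberg over all 16495 genes, threshold 0.05). The number of arrays limits the precision. Probe positions are on mm8, whose gene annotation was not used here, so exon or intron is not given. The genes, lists, rule for named genes and tests were chosen with earlier results of these data known: all 9 genes, every called list gene or the 2 smallest p, and the 3 nearest genes to each called gene. Alternatives covered background correction, scaling, filter, probe choice, the value table, slide, replicate block, array weights and leaving out each array. A further neighbour of the called genes, besides those given under other observations, is not reported here.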

Additional observations from a re-analysis of the deposited data

How the results depend on the processing

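The arrays, 3 per group, limit what can be called, and adjusted p-values moved more than changes did. On their brightest probes all 8 genes kept a positive change in every setting run, except Elovl1 with median scaling (-0.04), which also brought Smpd1 to 0.03, Ugcg to 0.10, Aloxe3 to 0.13, Abca12 to 0.15 and Elovl4 to 0.29. Median scaling left 1 of the genes described called (Them5, 1.70, adjusted p = 0.0419), with Alox12b at 0.37 (0.869). Over the whole array it left 8 genes higher and 49 lower, against 160 and 132 as reported. Of the list genes 0 passed as higher, against 7 as reported. At an unadjusted p under 0.05, 1 list gene was higher, beside 89 of all genes tested. Without the background filter 7 genes were higher and 29 lower. Of the genes described 0 passed (8 were higher at an unadjusted p under 0.05), as did 0 list genes (16). Over all 27573 genes then tested, 2699 were higher and 779 lower at that unadjusted p. Alox12b was at 0.70 (0.120) and Them5 at 2.03 (0.0617). With a filter on all 6 arrays 338 were higher and 240 lower. With normexp correction 4 of the genes described passed, Aloxe3 (0.45, 0.0412) and Elovl4 (0.58, 0.0441) included, where 197 genes were higher and 170 lower over the whole array. Aloxe3 also passed at 0.46 (0.0459) with the filter on all 6 arrays and at 0.51 (0.0498) in the authors' value table.

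A fit with slide as a block called 18 genes higher and 35 lower over the array. Of the genes described 0 passed (7 were higher at an unadjusted p under 0.05), as did 0 list genes (18). Over all genes tested 1135 were higher and 945 lower at that unadjusted p. Alox12b was at 0.73 (0.0754) and Them5 at 2.06 (0.0647). Within slides, Alox12b was at 0.81 in slide 1, and in slide 2 Aloxe3 was at 0.34, Elovl1 at 0.20 and Smpd1 at 0.17. Deviations of same-numbered cultures correlated at 0.408, -0.493 and -0.212. Those of differently numbered cultures ran from -0.671 (Anakinra 1 with PBS 3) to 0.703 (Anakinra 2 with PBS 3). With 3 arrays per group these values cannot decide whether the replicate numbers pair the cultures. A replicate block gave 0 higher and 0 lower genes in limma (1021 and 747 at an unadjusted p under 0.05), 0 of the genes described (7) and 0 list genes (17), with Alox12b at 0.70 (0.224) and Them5 at 2.03 (0.211). Leaving out 1 array gave 1 to 96 genes higher and 7 to 136 lower, 0 to 1 of the genes described and 0 to 5 list genes, with Alox12b at 0.65 to 0.75 and Them5 at 1.90 to 2.22. Without PBS 1 or PBS 2, 1 gene was higher over the whole array. Sult2b1 turned positive with quantile scaling (0.06), in the value table (0.04), with the slide as a block (0.01), with array weights (0.03), without Anakinra 3 (0.09) and without PBS 2 (0.01; leaving out 1 array gave -0.08 to 0.09), and Cert1 (-0.06) and Vipas39 (-0.18) turned negative with median scaling. The causes were not tested.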

Other observations

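Some annotated neighbours of the called genes, chosen after their values were seen and taken from the RefSeq gene order, gave the following. Beside Aloxe3 and Alox12b, the clock gene Per1 had a change of 0.27 ± 0.10 (limma adjusted p = 0.297) and the repressor gene Hes7, at 0.12, was well above background on 1 of 3 Anakinra arrays and on all 3 PBS arrays, while Alox8 and Gucy2e did not pass the background filter and were not tested. Beside Them5, the thioesterase gene Them4 read -1.57, -1.60 and -1.48 in Anakinra, against -1.85, -1.74 and -1.63 in PBS, with a change of 0.19 ± 0.08 (limma adjusted p = 0.354). Of these 3 tested neighbours, 0 passed, with Per1 at an unadjusted p under 0.05 (0.0452).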
